A study of Caenorhabditis elegans with 8 samples.

Results

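The scl genes of Caenorhabditis elegans encode small secreted proteins of the SCP family, and 6 of them are described here: scl-1, scl-2, scl-3, scl-11, scl-12 and scl-20. They were taken by gene name from the 26 scl genes among the 46904 genes of the deposited tables. The names had been chosen on values of these same libraries, as scl genes abundant in dauers and scl-2 as one that was higher after dauer. Levels by stage are therefore given as descriptions, without a test. The other 20 scl genes, among them scl-13, are described only beside the 6.

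RNA of whole hermaphrodites, selected for poly(A), was sequenced in 4 groups of n = 2 libraries. The groups were post-dauers and dauers of a daf-2; aak(0); hzl-1 strain, written aak(0) here, and post-dauers and dauers of a daf-2; hzl-1 strain, written daf-2 hzl-1. Dauers were collected after 96 h at 25 °C and post-dauers after 192 h, the last 96 h of them following a shift to the permissive temperature per the design text. All 4 groups carried the daf-2 and hzl-1 mutations, so neither a wild type nor an animal with functional hzl-1 stood beside them, and aak(0) denotes loss of both aak-1 and aak-2. The labels name neither the daf-2 allele nor separate cultures for the 2 libraries of a group, so p-values measure only the spread between these libraries, which may be technical.

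SCP proteins belong to the CAP superfamily, which also holds the venom allergens of insects, the pathogenesis-related proteins of plants and the Ancylostoma secreted proteins that hookworm larvae release when they enter a host. Dauer is the arrested, non-feeding larval stage that C. elegans enters when insulin signalling through the receptor DAF-2 is low and the FOXO factor DAF-16 is active. The gene scl-1 was described in C. elegans as a target of DAF-16 that lengthens life in daf-2 and age-1 mutants. SCL-12 and SCL-13 were described as proteins that bind cholesterol in the gut lumen of dauers, where it is held until recovery. The aak-1 and aak-2 genes encode the catalytic subunits of AMPK, a kinase that answers low cellular energy and that dauers need to ration their fat.

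Levels are given as FPKM, fragments scaled for transcript length and for the number mapped, a share of the RNA of the whole animal. In such bulk samples fewer cells of a type and less RNA per cell cannot be told apart. The libraries held 13.99 to 26.98 M recovered reads, and reads of rRNA took 0.548% to 12.4% of them, the most in library 1 of the daf-2 hzl-1 dauers. Stage markers followed the labels: the 6 vitellogenin genes summed to 3810 to 21298 FPKM in post-dauers and to 0.58 to 7.36 FPKM in dauers. Within the dauers 2 features set libraries apart. The 6 dauer cuticle genes summed to 6465 and 6444 FPKM in aak(0) dauers, against 36.9 FPKM in the first and 3115 FPKM in the second daf-2 hzl-1 dauer library, with cut-5 at 0 in the first. The 16 oocyte and eggshell genes, which mark an adult germ line, summed to 1277 and 1199 FPKM in aak(0) dauers, against 83.3 and 81.3 FPKM in daf-2 hzl-1 dauers.

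The label of abundant dauer genes held for scl-11 and scl-12 and, at a lower level, for scl-20, but not for scl-1 and scl-3. In no dauer library did scl-1 exceed 9.25 FPKM or scl-3 exceed 14.9 FPKM, while scl-13 and scl-21, which the choice left out, reached 1500 and 88.9 FPKM there. By position the 6 genes fell in 3 places of the build WBcel235. The members scl-11 (IV:13051377-13052149), scl-1 (IV:13056376-13057271), scl-2 (IV:13057678-13059085) and scl-3 (IV:13059618-13060695) lay in one array on chromosome IV. On chromosome V scl-12 (V:3812596-3813363) stood 961 nt from scl-13 (V:3810786-3811634), which the annotation places on the opposite strand. Further along chromosome V scl-20 (V:18732802-18734466) stood 29 nt from scl-19, again on the opposite strand. In the Ensembl annotation of the same build each of the 6 had 4 exons and a coding sequence of 207 to 212 codons, and none shared exon bases with another annotated gene. Family members resemble each other, and how the authors' counting divided reads between similar copies was not analysed here.

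The 2 most abundant members, scl-11 and scl-12, were dauer transcripts in both strains, together with scl-13. For scl-11 the level was 2.69 and 2.48 FPKM in aak(0) post-dauers and 26.7 and 12.2 FPKM in daf-2 hzl-1 post-dauers. In dauers scl-11 stood at 1491 and 1903 FPKM in aak(0) and at 2400 and 1953 FPKM in daf-2 hzl-1. Every dauer library was thus far above every post-dauer library, and among post-dauers both aak(0) libraries were below both daf-2 hzl-1 libraries. Post-dauers minus dauers gave a log2 difference of -8.88 ± 0.34 (SE) in aak(0) and of -6.83 ± 0.34 in daf-2 hzl-1, on the scale of log2(FPKM + 1). In rank, scl-11 was among the 124 most abundant of all genes in each of the 4 dauer libraries.

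The cholesterol-binding SCL-12 had the highest transcript level of the family in aak(0) dauers. For scl-12 the level was 3.12 and 0.99 FPKM in aak(0) post-dauers and 23.2 and 8.49 FPKM in daf-2 hzl-1 post-dauers. In dauers scl-12 measured 2319 and 3751 FPKM in aak(0) and 1653 and 1534 FPKM in daf-2 hzl-1. The groups did not overlap at either stage: aak(0) was the higher in dauers and the lower in post-dauers. The log2 difference of post-dauers minus dauers was -10.01 ± 0.52 in aak(0) and -6.72 ± 0.52 in daf-2 hzl-1. The ratio of scl-11 to scl-12 FPKM was 0.643 and 0.507 in aak(0) dauers, against 1.45 and 1.27 in daf-2 hzl-1 dauers, so the more abundant of the pair was scl-12 in aak(0) dauers and scl-11 in daf-2 hzl-1 dauers.

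Its neighbour scl-13, which is no member, measured 2.41 and 0.71 FPKM in aak(0) post-dauers and 24.4 and 10.5 FPKM in daf-2 hzl-1 post-dauers. In dauers scl-13 stood at 1050 and 1500 FPKM in aak(0) and at 1386 and 1138 FPKM in daf-2 hzl-1. The dauer libraries of the strains overlapped for scl-13, and the post-dauer libraries did not. From dauer to post-dauer scl-13 fell in aak(0) (log2 -9.02 ± 0.46, adjusted p by limma = 7.21e-05) and in daf-2 hzl-1, a difference of log2 -6.20 ± 0.46 (adjusted p by limma = 6.67e-05).

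**Figure D1:**
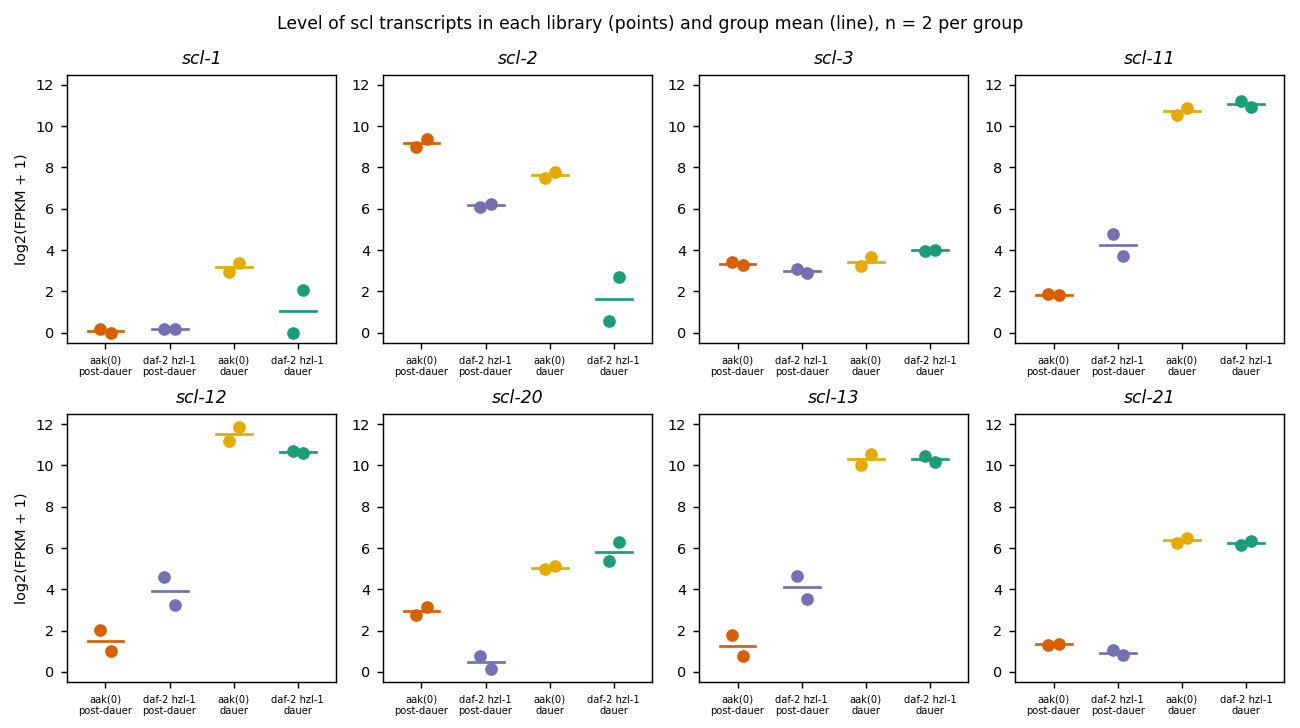
Level of each scl member, of scl-13 and of scl-21 as log2(FPKM + 1) on the vertical axis, by group on the horizontal axis; points are libraries and lines are group means, n = 2 per group. In dauers scl-11, scl-12 and scl-13 lie highest in both strains, while scl-2 reaches its highest level, 499 and 674 FPKM, in aak(0) post-dauers.

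Post-dauers of aak(0) had less scl-11 and scl-13 transcript than post-dauers of daf-2 hzl-1, and scl-12 lay the same way with a call that depended on the method. Strains were compared within a stage by limma on log2(FPKM + 1) over 15365 genes, with Benjamini-Hochberg adjustment over all of them and a call at an adjusted p under 0.05. In post-dauers scl-11 was lower in aak(0), at 2.58 ± 0.148 FPKM against 19.4 ± 10.2 FPKM in daf-2 hzl-1 (SD, n = 2 each), a 7.51-fold difference of the means (log2 -2.41 ± 0.34, adjusted p by limma = 0.0150). The call of scl-11 was lost without the second aak(0) dauer (adjusted p = 0.0501), the second aak(0) post-dauer (0.0730) or the first daf-2 hzl-1 post-dauer library (0.0529). In the same comparison scl-13 was 11.2-fold lower in aak(0) (log2 -2.82 ± 0.46, adjusted p by limma = 0.0250). That call was lost without either aak(0) dauer library (adjusted p = 0.0658 and 0.0674), the second aak(0) post-dauer (0.0898) or the first daf-2 hzl-1 post-dauer library (0.135). For scl-12 the means were 2.06 ± 1.51 FPKM in aak(0) and 15.8 ± 10.4 FPKM in daf-2 hzl-1 post-dauers, a difference limma did not call (log2 -2.40 ± 0.52, adjusted p = 0.0533). By edgeR on recovered reads scl-12 was called (log2 -3.08, adjusted p = 0.0202), as were scl-11 (log2 -2.86, adjusted p = 0.0123) and scl-13 (log2 -3.70, adjusted p = 0.00933). Without the first aak(0) post-dauer library limma called scl-12 too (adjusted p = 0.0392), in a fit that called 1062 genes lower in aak(0) post-dauers, against 68 with all libraries.

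These post-dauer levels rest on few reads. In aak(0) post-dauers scl-11 had 36 and 43 reads, scl-12 had 40 and 19, and scl-13 had 28 and 12, against 102 to 243 reads for each of them in the daf-2 hzl-1 post-dauer libraries. The first daf-2 hzl-1 post-dauer library was above the second for all 3, by ratios of 2.19, 2.73 and 2.34 for scl-11, scl-12 and scl-13. The dauer cuticle genes summed to 4.88 and 3.51 FPKM in aak(0) post-dauers and to 2.34 and 2.24 FPKM in daf-2 hzl-1 post-dauers. Their sums were uneven in daf-2 hzl-1 dauers themselves, at 36.9 and 3115 FPKM, and any relation of these sums to the scl levels was not tested.

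In dauers no difference between the strains was called for scl-11 (log2 -0.36 ± 0.34, adjusted p by limma = 0.463) or scl-12 (log2 0.89 ± 0.52, adjusted p by limma = 0.241), nor for scl-13, which averaged 1275 ± 319 FPKM in aak(0) and 1262 ± 175 FPKM in daf-2 hzl-1 (SD, n = 2 each). Limma called the change of the gap between stages, the post-dauer difference minus the dauer difference, for all 3, by a narrow margin. It was log2 -2.05 ± 0.48 for scl-11 (adjusted p by limma = 0.0422), -3.29 ± 0.73 for scl-12 (0.0360) and -2.82 ± 0.65 for scl-13 (0.0407). By edgeR it was called for scl-12 (log2 -3.57, adjusted p = 0.0162) and scl-13 (log2 -3.27, adjusted p = 0.0188) and missed the threshold for scl-11 (log2 -2.05, adjusted p = 0.0507). Without the filter on low values limma called none of the 3 (adjusted p = 0.0612 for scl-11, 0.0550 for scl-12 and 0.0605 for scl-13). For scl-12 and scl-13 the limma call was lost without either aak(0) dauer, the second aak(0) post-dauer, either daf-2 hzl-1 dauer or the first daf-2 hzl-1 post-dauer library, at adjusted p of 0.0691 to 0.145 and 0.0790 to 0.156. For scl-11 it was lost without any single library except the second daf-2 hzl-1 post-dauer, at adjusted p of 0.0536 to 0.162.

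The gene scl-2 took the opposite course to these 3, and in dauers it had the largest strain difference of the 6 members. Both aak(0) post-dauer libraries were above all others, with 499 and 674 FPKM, against 67.5 and 75.1 FPKM in daf-2 hzl-1 post-dauers. In dauers scl-2 stood at 176 and 218 FPKM in aak(0) and at 0.49 and 5.52 FPKM in daf-2 hzl-1. No groups overlapped, and aak(0) dauers were above even the post-dauers of daf-2 hzl-1. Recovered reads of scl-2 numbered 2361 and 3109 in aak(0) dauers, against 6 and 49 in daf-2 hzl-1 dauers, which were 11.3 times apart in FPKM. The log2 difference of post-dauers minus dauers was 1.56 ± 0.61 in aak(0) and 4.53 ± 0.61 in daf-2 hzl-1.

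In dauers scl-2 was higher in aak(0), at 197 ± 29.3 FPKM against 3.00 ± 3.56 FPKM in daf-2 hzl-1 (SD, n = 2 each), 65.5-fold by the means (log2 5.98 ± 0.61, adjusted p by limma = 0.00120). By edgeR the difference was log2 5.78 (adjusted p = 6.40e-04), and the limma call held in each fit that left out 1 library (adjusted p of 1.76e-04 to 0.0172), with log2 4.92 without the first and 7.05 without the second daf-2 hzl-1 dauer library. In post-dauers scl-2 was 8.23-fold higher in aak(0) (log2 3.01 ± 0.61, adjusted p by limma = 0.0455), and edgeR called it as well (log2 2.98, adjusted p = 0.0192). The limma call in post-dauers was lost without either aak(0) dauer (adjusted p = 0.112 and 0.113), either aak(0) post-dauer (0.0637 and 0.150) or either daf-2 hzl-1 post-dauer library (0.236 and 0.218). The gap was narrower in post-dauers than in dauers by log2 2.97 ± 0.87, which limma did not call (adjusted p = 0.0749) and edgeR did (log2 -2.79, adjusted p = 0.0426). Without the first or the second daf-2 hzl-1 dauer library limma called it too (log2 -1.91 and -4.04, adjusted p = 0.0245 and 0.00220).

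Markers of several tissues lay the same way as scl-2 and scl-1 in dauers. Of the 15 intestine markers in the files, 12 were higher in aak(0) dauers by limma and 9 by edgeR, where 25.5% of all genes were higher by limma and 14.8% by edgeR. The smallest adjusted p belonged to the protease genes cpr-5 (21.5 ± 3.25 FPKM in aak(0) against 0.535 ± 0.757 FPKM in daf-2 hzl-1, SD, n = 2 each) and asp-1 (log2 4.62 ± 0.51). Their sums were 2168 and 2520 FPKM in aak(0) dauers, against 471 and 705 FPKM in daf-2 hzl-1 dauers, while cpr-5 was at 0 in library 1 of the daf-2 hzl-1 dauers. All 16 oocyte and eggshell genes were higher in aak(0) dauers by limma and by edgeR. Of the sperm genes 16 of 17 tested were higher by limma and 15 of 19 by edgeR, and of 11 hypodermis genes 5 by limma and 2 by edgeR. The limma counts hold the intestine gene pgp-1 and the hypodermis gene che-14, named after their values were seen. Both needed their level in aak(0) dauers to pass the filter, so their calls there are no evidence of a difference. Without that group their FPKM averaged 0.698 and 0.658 over the 8 libraries. Among 14 neuron genes limma called 0, with 4 at an unadjusted p under 0.05. By edgeR 2 of them were lower in aak(0), where 7.99% of all genes were lower. Among 5 tested pharyngeal gland genes limma called 0, with 4 at an unadjusted p under 0.05 and 1 higher by edgeR. In post-dauers the intestine markers summed to 6879 and 6245 FPKM in aak(0), against 4309 and 4858 FPKM in daf-2 hzl-1. Of the 15, limma called 1 there, the cathepsin B gene cpr-1, at 1716 ± 282 FPKM in aak(0) against 124 ± 8.45 FPKM in daf-2 hzl-1, a difference of log2 3.77 ± 0.68 (adjusted p by limma = 0.0323). Of the 6 vitellogenin genes, which the adult intestine expresses for yolk, limma called 4 lower in aak(0) post-dauers and edgeR 2. Of all genes in post-dauers, limma called 4.22% higher and 0.443% lower in aak(0), and edgeR called 0.786% lower. The part of these tissues in the scl-2 and scl-1 differences was not tested.

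The gene scl-20 differed between the strains in post-dauers. It measured 5.65 and 7.78 FPKM in aak(0) post-dauers, against 0.72 and 0.10 FPKM in daf-2 hzl-1 post-dauers. In dauers it stood at 30.1 and 34.1 FPKM in aak(0) and at 40.9 and 76.3 FPKM in daf-2 hzl-1. The 4 groups did not overlap, and their order placed daf-2 hzl-1 dauers at the top and daf-2 hzl-1 post-dauers at the bottom. The log2 difference of post-dauers minus dauers was -2.11 ± 0.37 in aak(0) and -5.37 ± 0.37 in daf-2 hzl-1.

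In post-dauers scl-20 was higher in aak(0), 16.4-fold by the means (log2 2.47 ± 0.37, adjusted p by limma = 0.0182), with 62 and 120 reads against 8 and 2 reads in daf-2 hzl-1. By edgeR it was log2 3.58 higher (adjusted p = 0.0180). The limma call was lost without either aak(0) dauer (adjusted p = 0.0597 and 0.0613), the second aak(0) post-dauer (0.0788) or either daf-2 hzl-1 post-dauer library (0.0742 and 0.119). In dauers the difference ran the other way and was not called by limma (log2 -0.78 ± 0.37, adjusted p = 0.153) or edgeR (log2 -1.33, adjusted p = 0.0589). With all libraries brought to one median, limma called scl-20 lower in aak(0) dauers (log2 -1.33, adjusted p = 0.0339). The change of the gap between stages was log2 3.26 ± 0.52 (adjusted p by limma = 0.0129) and log2 4.91 by edgeR (adjusted p = 0.00595). It lost its limma call without either aak(0) dauer (adjusted p = 0.0793 and 0.0662) or the second daf-2 hzl-1 post-dauer library (0.0572).

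The lowly expressed scl-3 varied least. It measured 9.71 and 8.62 FPKM in aak(0) post-dauers and 7.43 and 6.33 FPKM in daf-2 hzl-1 post-dauers. In dauers it stood at 8.22 and 11.8 FPKM in aak(0) and at 14.6 and 14.9 FPKM in daf-2 hzl-1. The aak(0) post-dauers and dauers overlapped, and the other groups stood apart from each other. Limma called no strain difference of scl-3 in post-dauers (log2 0.37 ± 0.23, adjusted p = 0.411) or in dauers (log2 -0.54 ± 0.23, adjusted p = 0.125). In dauers edgeR called it lower in aak(0) (log2 -0.99, adjusted p = 0.0429), and so did limma with equal medians (log2 -1.09, adjusted p = 0.0167). The change of the gap between stages was log2 0.91 ± 0.33 and was not called by limma (adjusted p = 0.120) or edgeR (adjusted p = 0.0780).

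The DAF-16 target scl-1 was the least abundant member. It measured 0.11 and 0 FPKM in aak(0) post-dauers and 0.14 and 0.11 FPKM in daf-2 hzl-1 post-dauers, from 0 to 2 reads. In dauers it stood at 6.77 and 9.25 FPKM in aak(0) and at 0 and 3.15 FPKM in daf-2 hzl-1, from 90 and 128 reads against 0 and 27 reads. A count of 0 in library 1 of the daf-2 hzl-1 dauers allows up to 3 reads, by counting error only. Through its level in aak(0) dauers alone scl-1 passed the filter of a mean of 1 FPKM over the 8 libraries, and without that group its FPKM averaged 0.439 over 8. A gene admitted that way had to differ, so its strain difference in dauers (log2 2.13 ± 0.61) and the change of its gap between stages (log2 -2.23 ± 0.86) are given as values without a test. With the first of the daf-2 hzl-1 dauer libraries left out the difference in dauers was log2 1.105, and without the second it was log2 3.16. In post-dauers, at these read numbers, no difference was detectable (log2 -0.09 ± 0.61, adjusted p by limma = 0.956).

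**Figure D2:**
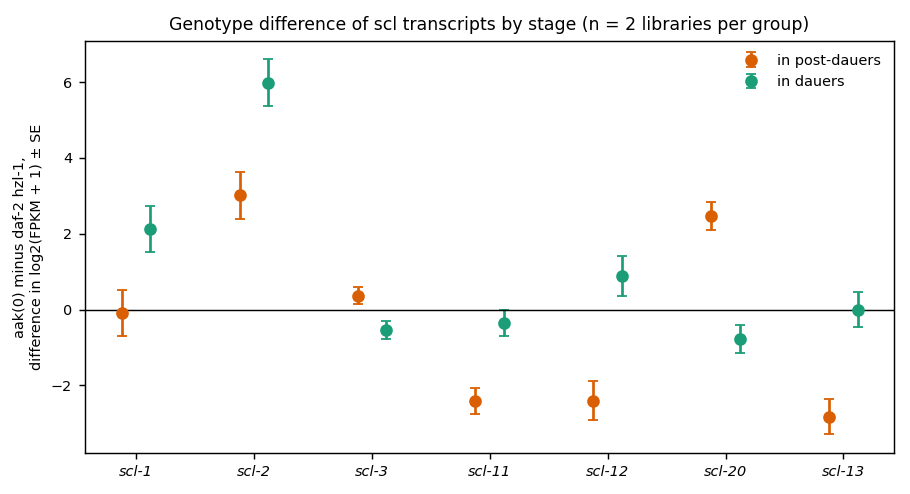
Difference between the strains, aak(0) minus daf-2 hzl-1, in log2(FPKM + 1) on the vertical axis for each gene on the horizontal axis, in post-dauers (orange) and in dauers (green); bars are the SE of the limma fit, n = 2 libraries per group. In dauers scl-2 has the largest difference, 5.98, and in post-dauers scl-11, scl-12 and scl-13 lie below 0 while scl-2 and scl-20 lie above it.

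The counts of members called are set here beside the share of all genes called. In dauers limma called 1 of the 5 members other than scl-1, scl-2, which was higher in aak(0), where 29.1% of all tested genes were called, 25.5% higher and 3.6% lower. By edgeR 2 of these 5 were called, scl-2 higher and scl-3 lower, against 22.8% of genes. In post-dauers limma called 3 of 6, scl-2 and scl-20 higher and scl-11 lower, where 4.66% of genes were called, 4.22% higher and 0.443% lower. That balance turned without the first aak(0) post-dauer library, where 659 genes were called higher and 1062 lower, against 648 and 68 with all libraries. By edgeR 4 of 6 were called there, against 4.17% of genes. The change of the gap between stages was called for 3 of 6 by limma, against 11.3% of genes, and for 3 of 6 by edgeR, against 13% of genes. That change equals the stage difference in aak(0) minus the stage difference in daf-2 hzl-1, and the members were chosen on their levels by stage. Its counts therefore cannot be read as an excess over all genes. The libraries of the strains did not overlap for 5 of the same 5 members in dauers, where this held for 73.7% of genes, and for 5 of 6 in post-dauers, where it held for 50.5%. The median of all 6 members differed by log2 0.26 in dauers and 0.14 in post-dauers, and the median of all tested genes by 0.41 and 0.13. On recovered reads, scaled by edgeR's TMM method, the median gene differed by log2 0.05 in dauers and 0.08 in post-dauers, so the sign of a small FPKM difference depends on the scaling. The 2 strain comparisons and the change between stages share libraries and are not independent of each other.

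The scl pool as a whole had an unlike make-up in post-dauers and dauers. Summed over the 26 genes, scl transcripts reached 552 and 720 FPKM in aak(0) post-dauers and 164 and 124 FPKM in daf-2 hzl-1 post-dauers. In dauers the sum was 5182 and 7540 FPKM in aak(0) and 5568 and 4812 FPKM in daf-2 hzl-1. The scl genes thus took 0.272% to 0.431% of all recovered reads in dauers and at most 0.0421% in post-dauers. Of the summed FPKM, scl-2 made up 90.3% and 93.6% in aak(0) post-dauers against 41.2% and 60.4% of it in post-dauers of daf-2 hzl-1. In dauers scl-2 made up 3.40% and 2.89% in aak(0) and 0.00880% and 0.115% in daf-2 hzl-1. In dauers scl-11, scl-12 and scl-13 together held 93.8% and 94.9% of the pool in aak(0) and 97.7% and 96.1% in daf-2 hzl-1. In post-dauers these 3 held 1.49% and 0.581% in aak(0), against 45.3% and 25.0% in daf-2 hzl-1.

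**Figure D3:**
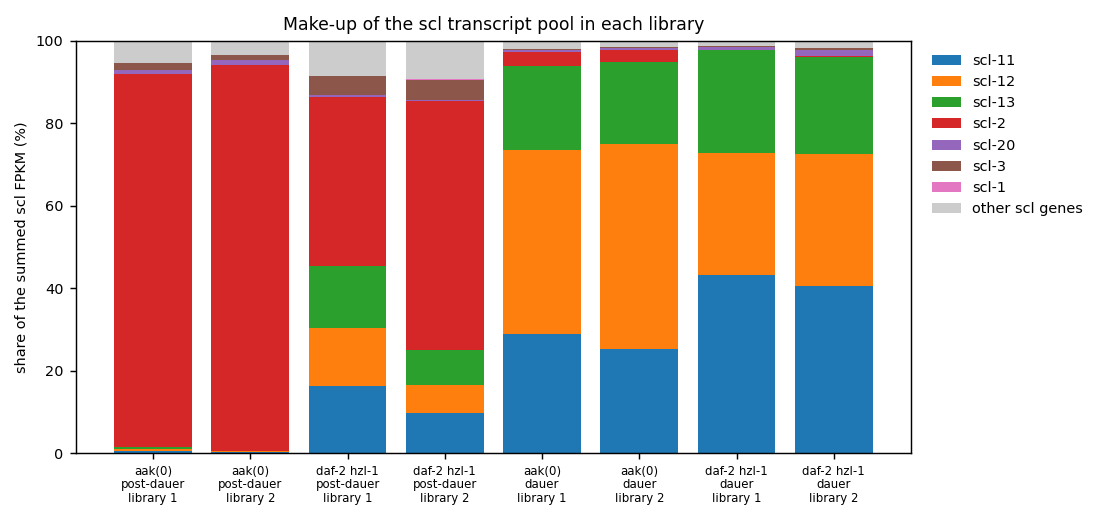
Share of the summed FPKM of the 26 scl genes, in percent on the vertical axis, taken by each gene in each of the 8 libraries on the horizontal axis. In dauers scl-11, scl-12 and scl-13 fill nearly the whole bar, and in aak(0) post-dauers scl-2 takes 90.3% and 93.6% of it.

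Of the 20 scl genes that are no members, 7 passed the filter of a mean of 1 FPKM. A gene that passes only through the group in which it is high must differ, so their counts show nothing about the family as a whole. In dauers limma called 4 of the 7 higher in aak(0), and edgeR the same number of 11, where 25.5% of all genes were higher by limma and 14.8% by edgeR. They were scl-26 and 3 genes that were named after their values were seen, scl-17, scl-23 and scl-24, none of which averaged above 3.69 FPKM in aak(0) dauers. In post-dauers limma called 1 of the 7, scl-13, which was lower in aak(0), where 4.22% of all genes were higher and 0.443% lower. By edgeR 1 of 11 was called there, again scl-13, where 0.786% of all genes were lower. From dauer to post-dauer limma called 2 of the 7 higher and 3 lower in aak(0), where 25.9% of all genes were higher and 27% lower. In daf-2 hzl-1 it called 3 higher and 2 lower, where 39.4% of all genes were higher and 27.8% lower.

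Among them scl-21 and scl-26 passed the filter only through the group or stage in which they were high, so their values there are given without a test. The same held for scl-17, scl-23 and scl-24, whose means were higher after dauer in both strains. Without the post-dauers their FPKM averaged 0.318, 0.429 and 0.98 over the 8 libraries. In aak(0) the stages overlapped for scl-24, at 6.08 and 3.44 FPKM in post-dauers against 4.67 and 2.71 FPKM in dauers. The stage calls of all these genes, counted above, are therefore no evidence of a change. For scl-21 the level was 1.43 and 1.59 FPKM in aak(0) post-dauers, against 75.9 and 88.9 FPKM in aak(0) dauers. In daf-2 hzl-1 it measured 1.07 and 0.77 FPKM in post-dauers, against 68.9 and 79.0 FPKM in dauers. Post-dauers and dauers thus stood far apart in both strains, while the strains overlapped in dauers. No strain difference of scl-21 was called in post-dauers (adjusted p by limma = 0.329) or dauers (adjusted p by limma = 0.603). The gene scl-26 measured 3.55 and 7.00 FPKM in aak(0) dauers from 45 and 90 reads, against 0 and 0.24 FPKM in daf-2 hzl-1 dauers from 0 and 3 reads. For scl-5 the level was 9.29 and 8.99 FPKM in aak(0) post-dauers, against 1.98 and 1.87 FPKM in daf-2 hzl-1 post-dauers, a difference limma did not call (log2 1.79 ± 0.47, adjusted p = 0.0915). Of the 13 scl genes under the filter, none averaged above 2.08 FPKM in any group, and scl-18 was listed at 0 in all 8 libraries.

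On chromosome IV, 11 of the scl genes formed an array of 25.3 kb, all on the plus strand, in the order scl-9, scl-10, scl-11, scl-1, scl-2, scl-3, scl-4, scl-5, scl-6, scl-7 and scl-8. Neighbours in it had unlike levels. In aak(0) dauers scl-11 averaged 1697 FPKM, while scl-10, the nearest scl gene on one side, averaged 0.21 FPKM and scl-1, the nearest on the other, 8.01 FPKM. In daf-2 hzl-1 dauers those means were 2176 FPKM for scl-11, 0.205 FPKM for scl-10 and 1.58 FPKM for scl-1. A gap of 406 nt separates scl-1 from scl-2, which averaged 587 FPKM in aak(0) post-dauers where scl-1 averaged 0.055 FPKM. On the other side, 532 nt away, scl-3 averaged 9.17 FPKM in the same group. The collagen gene col-131, on the minus strand between scl-5 and scl-6, averaged 91.0 FPKM in aak(0) dauers and 24.3 FPKM in daf-2 hzl-1 dauers. On chromosome V scl-12 and scl-13 were both abundant in dauers and low in post-dauers. The ratio of scl-12 to scl-13 FPKM was 2.21 and 2.50 in aak(0) dauers, against 1.19 and 1.35 in daf-2 hzl-1 dauers. Further along, scl-19 averaged 2.08 FPKM in aak(0) dauers beside 32.1 FPKM of scl-20, and 0.965 FPKM in daf-2 hzl-1 dauers beside 58.6 FPKM.

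**Figure D4:**
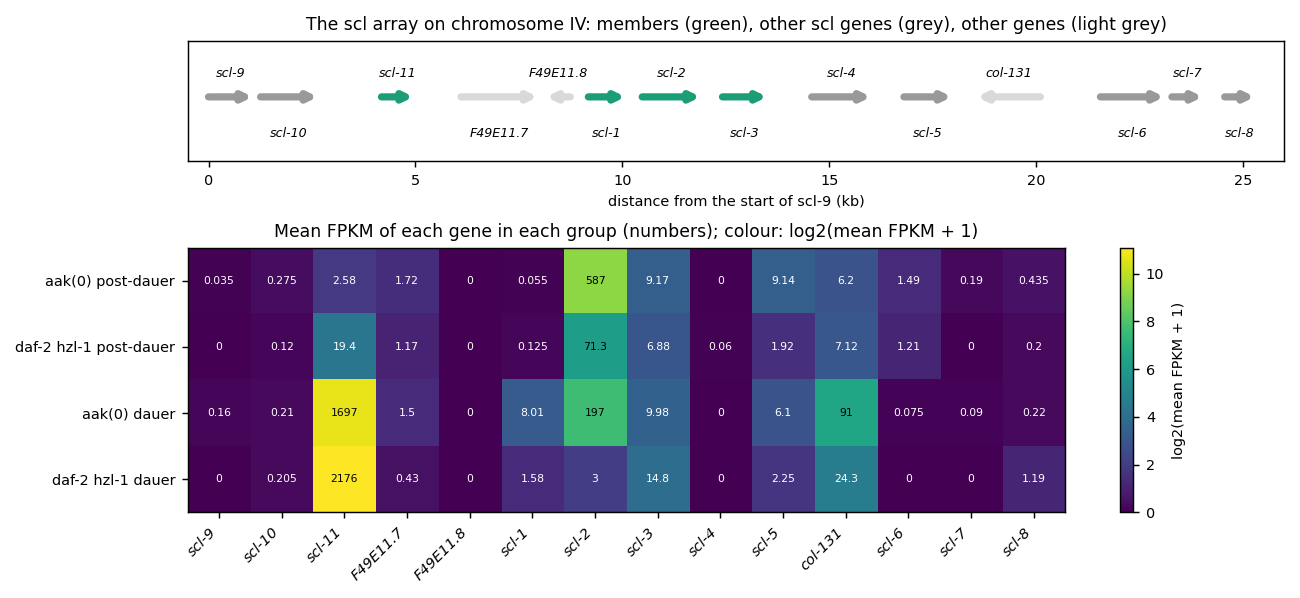
The scl array on chromosome IV: upper panel, coding genes and pseudogenes as arrows in the direction of transcription by distance in kb from the start of scl-9; lower panel, mean FPKM of each gene (numbers, n = 2 libraries) by group, with colour for log2(mean FPKM + 1). Of the 11 scl genes in the array, scl-11 and scl-2 exceed 15 FPKM in a group, scl-11 in dauers as well as daf-2 hzl-1 post-dauers, scl-2 in all groups but daf-2 hzl-1 dauers.

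Genes outside the family with the most similar course were ranked by Pearson correlation of log2(FPKM + 1) over the 8 libraries, a description over libraries that share stages and strains. Nearest to scl-11 were the saposin-like gene spp-20 (r = 0.998), the aspartyl protease gene asp-9 (r = 0.998) and the neuropeptide gene nlp-37 (r = 0.996). Nearest to scl-12 were the acyl-CoA synthetase gene acs-3 (r = 0.997), pes-7 (r = 0.992) and a second acyl-CoA synthetase gene, acs-17 (r = 0.991). Both spp-20 and asp-9, and acs-17, also stood nearest to scl-13. Like scl-11, asp-9 averaged 0.185 ± 0.163 FPKM in aak(0) post-dauers, against 3.24 ± 1.37 FPKM in daf-2 hzl-1 post-dauers (SD, n = 2 each).

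Nearest to scl-2 was the intestinal metallothionein gene mtl-2 (r = 0.992), one of the 15 intestine markers, followed by the cadmium-responsive gene cdr-4 (r = 0.991) and rga-1 (r = 0.989). In post-dauers mtl-2 averaged 153 ± 31.7 FPKM in aak(0) and 42.1 ± 9.02 FPKM in daf-2 hzl-1. In dauers it averaged 65.4 ± 0.643 FPKM in aak(0) and 3.21 ± 4.01 FPKM in daf-2 hzl-1 (SD, n = 2 each), so its 4 groups had the order of those of scl-2. For scl-20 the nearest genes were sms-3 (r = 0.999), ucr-2.1 (r = 0.994) and plpp-1.1 (r = 0.991). For scl-3 they were thn-5 (r = 0.977), atg-9 (r = 0.969) and men-1 (r = 0.967), and for scl-1 skpo-2 (r = 0.997), cbn-1 (r = 0.995) and the alpha-tubulin gene tba-8 (r = 0.995).

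Genes that handle sterols and make dafachronic acids, the cholesterol-derived hormones that end dauer arrest, are counted beside the share of all genes called. In post-dauers, where 4.66% of all genes were called, limma called 0 of the 10 tested, with 3 at an unadjusted p under 0.05. There edgeR called 0 of 11 tested, against 4.17% of all genes. In dauers, where 29.1% of all genes were called, limma called 1 of the 10, the dehydrogenase gene dhs-16, at 6.16 ± 0.0283 FPKM in aak(0) against 1.84 ± 0.792 FPKM in daf-2 hzl-1 (SD, n = 2 each). It passed the filter only through aak(0) dauers, so no p is given. By edgeR 1 of 11 tested was higher and 2 were lower in aak(0) dauers, where 14.8% of all genes were higher and 7.99% lower. From dauer to post-dauer limma called 1 higher and 3 lower in aak(0), where 25.9% and 27% of all genes were, and 2 higher and 5 lower in daf-2 hzl-1, where 39.4% and 27.8% were. These counts hold dhs-16 and, named after their values were seen, daf-9 and ncr-2. Without the dauers their FPKM averaged 0.419, 0.593 and 0.855 over the 8 libraries, under the filter. A stage call of any of them would be no evidence of a change. The nuclear hormone receptor gene daf-12 fell to 4.09 ± 1.56 FPKM in aak(0) post-dauers against 50.4 ± 6.75 FPKM in aak(0) dauers (log2 -3.36 ± 0.27, adjusted p by limma = 2.25e-04). In daf-2 hzl-1 it fell to 6.72 ± 1.29 FPKM in post-dauers against 77.1 ± 8.59 FPKM in dauers (log2 -3.34 ± 0.27, adjusted p by limma = 8.74e-05).

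For genes of the insulin path to DAF-16 and genes that DAF-16 activates the limma counts in dauers were near the share of all genes. Limma called 3 of 13 path genes higher in aak(0) dauers and 1 lower, where 25.5% of all genes were higher and 3.6% lower. By edgeR 2 of the 13 were lower, where 14.8% of all genes were higher and 7.99% lower. The gene limma called lower was daf-16 itself, at 113 ± 6.46 FPKM in aak(0) against 202 ± 14.6 FPKM in daf-2 hzl-1, a difference of log2 -0.83 ± 0.17 (adjusted p by limma = 0.0131). In post-dauers limma called 1 of the 13, the 14-3-3 gene ftt-2, higher in aak(0) at 506 ± 36.6 FPKM against 289 ± 18.1 FPKM in daf-2 hzl-1. Of 18 DAF-16-activated genes other than scl-1, limma called 4 higher in aak(0) dauers. By edgeR, which tested 16 of them, 4 were higher and 2 lower. First by adjusted p was pud-2.1 at 376 ± 138 FPKM against 0.635 ± 0.898 FPKM in daf-2 hzl-1. In post-dauers, where 4.22% of all genes were higher and 0.443% lower, limma called 2 of the 18 higher in aak(0), dod-3 and the catalase gene ctl-2, and 3 lower. Like scl-2, dod-3 was higher in aak(0) at both stages. It measured 602 ± 58.8 FPKM in aak(0) post-dauers against 114 ± 12.9 FPKM in daf-2 hzl-1 post-dauers, a difference of log2 2.39 ± 0.18 (adjusted p by limma = 0.00241), and 170 ± 21.1 FPKM in aak(0) dauers against 65.9 ± 11.1 FPKM in daf-2 hzl-1 dauers, a difference of log2 1.35 ± 0.18 (adjusted p by limma = 0.00331). The 3 lower ones, named after their values were seen, were the superoxide dismutase gene sod-5 and the small heat shock protein genes hsp-12.3 and hsp-12.6.

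Of the 2 other CAP genes followed, lon-1 was higher in aak(0) dauers, at 53.5 ± 2.11 FPKM against 14.3 ± 10.97 FPKM in daf-2 hzl-1 dauers, a difference of log2 2.05 ± 0.47 (adjusted p by limma = 0.0200). In post-dauers limma did not call lon-1 (adjusted p = 0.183). For vap-1, whose mean of 1.03 FPKM lay just over the filter, the level in dauers was 0.93 FPKM in both aak(0) libraries against 0.055 ± 0.0778 FPKM in daf-2 hzl-1 (SD, n = 2 each).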

How the data were processed

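Paired-end RNA-seq reads of 8 whole-animal libraries, selected for poly(A), had been turned by the authors into a table of FPKM per gene and into tables of their own comparisons. Those tables hold counts divided by size factors, a normalized signal deposited for each library, together with log2 fold changes and p-values that the authors' deposited tables list and that are not used here. The submitters' processing notes name Trimmomatic 0.35, STAR 2.7.1a, RSEM, DESeq2 1.30.1 and the build WBcel235. The annotation release, the counting mode and the use of strand are not given in the sources used here.

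Of the gene names beginning with scl, 26 were found. Members, gene lists and tests were chosen with earlier results of these data known. FPKM was tested as log2(FPKM + 1) with limma 3.58.1 (moderated test with trend) on 15365 genes with a mean of at least 1 FPKM over the 8 libraries, with 1 mean per group and 4 residual degrees of freedom. p-values were adjusted by Benjamini-Hochberg over all genes tested, with a threshold of 0.05. A fold on this scale understates the change of low genes. Strain differences are aak(0) minus daf-2 hzl-1, and stage differences are post-dauers minus dauers. The normalized signal in the deposited tables was brought back to whole reads: 100% of values came out whole within a relative tolerance of 1e-06. These reads, 13.99 to 26.98 M per library, were tested with edgeR 4.0.16 (quasi-likelihood, TMM, 17050 genes) and DESeq2 1.42.0 as alternatives. Other alternatives were a pseudocount of 0.1, no filter, a mean of at least 5 FPKM, equal medians, a replicate block and leaving out each library. The fits were tested on simulated data.

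Besides all 6 members and scl-13, the genes named are other scl genes with a group mean of at least 5 FPKM, the 3 genes nearest to each member by correlation, among genes with a mean of at least 5 FPKM, and up to 2 genes per list by adjusted p. Gene positions are those of the deposited table, and exons and coding lengths come from the Ensembl annotation, release 115. In that release the start or end of each member differs from the deposited table. No wild-type animals were analysed here.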

Additional observations from a re-analysis of the deposited data

Results flagged for a closer look

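For scl-11, scl-12, scl-13 and scl-20 the test of the difference itself, the strain difference in post-dauers minus that in dauers, passed limma's adjusted threshold. The strain difference was more negative after dauer for scl-11 (log2 -2.05), scl-12 (log2 -3.29) and scl-13 (log2 -2.82), and more positive after dauer for scl-20 (log2 3.26). Of these, scl-11, scl-12 and scl-20 had been chosen on their levels by stage in the same libraries. The value of scl-26 (log2 -2.09) passed the same threshold but is no evidence of a difference, since scl-26 passed the filter only through its level in aak(0) dauers. By edgeR it was log2 -0.13 (adjusted p = 0.764), and in post-dauers scl-26 had 2 and 4 reads in aak(0) and 0 in both daf-2 hzl-1 libraries.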

How the results depend on the processing

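With 2 libraries per group most calls sit near the threshold. The strain difference of scl-2 in dauers passed it under all 7 settings and without any single library. The strain difference of scl-1 in dauers is given as values only, since scl-1 passed the filter only through aak(0) dauers. It was log2 2.13 by limma with or without the filter, 2.23 with DESeq2 and 2.18 with edgeR. With equal medians it was 1.58, and with a pseudocount of 0.1 it was 3.81. In dauers scl-3 became called with DESeq2 (log2 -1.07), edgeR (-0.99) and equal medians (-1.09), and scl-20 with DESeq2 (-1.40) and equal medians (-1.33). In post-dauers scl-2 was no longer called with no filter (log2 3.01, adjusted p by limma = 0.0656) or a pseudocount of 0.1 (3.02, 0.144). In post-dauers scl-12 became called with DESeq2 (-3.14), edgeR (-3.08) and equal medians (-2.65). For the change of the strain difference between stages, scl-2 became called with DESeq2 (-2.82) and edgeR (-2.79). There scl-11 was no longer called with edgeR (-2.05, 0.0507), equal medians (-1.74, 0.0766) or no filter (-2.05, 0.0612), nor scl-12 (-3.29, 0.0550) and scl-13 (-2.82, 0.0605) with no filter. The cause of these changes was not tested.

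Genes called numbered 4464 in dauers, 716 in post-dauers and 1743 for the change between stages, and DESeq2 called 1076 in post-dauers. Of the calls in dauers, 87.6% were higher in aak(0), against 64.9% by edgeR and 48.2% with equal medians. In post-dauers 90.5% were higher, against 71.2% with equal medians, and without the first aak(0) post-dauer library 38.3%. For the change between stages 31.2% were higher, against 51.1% with equal medians. With the replicate block 367 genes were called in post-dauers and 1044 for the change between stages, where scl-11 (-2.05, 0.0646), scl-12 (-3.29, 0.0534) and scl-13 (-2.82, 0.0503) lost their calls. Samples with the same number deviated together by a correlation of -0.258 to 0.0147, so no shared deviation was seen. With 2 libraries per group this cannot exclude that the numbers pair the libraries.

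Leaving out 1 library gave 1305 to 5376 called genes in dauers, 90 to 1721 in post-dauers, 360 to 3896 for the change between stages and 4964 to 8738 for the stage difference in aak(0). The log2 strain difference in dauers ran over 1.105 to 3.16 for scl-1. In post-dauers it ran over 2.79 to 3.22 for scl-2, -2.95 to -1.88 for scl-11, -3.08 to -1.73 for scl-12, 2.15 to 2.80 for scl-20 and -3.40 to -2.25 for scl-13. For the change between stages the range was -3.25 to -1.20 for scl-1, -4.04 to -1.91 for scl-2, -2.59 to -1.52 for scl-11, -3.97 to -2.62 for scl-12, 2.82 to 3.70 for scl-20 and -3.40 to -2.25 for scl-13. A library left alone in its group was assumed to vary like the others.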
